A study of Homo sapiens with 3 samples.

Results

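The Notch genes followed here are 3 receptors (NOTCH1, NOTCH2 and NOTCH3), 5 ligands (JAG1, JAG2, DLL1, DLL3 and DLL4) and 2 factors of the HES family (HES1 and HES6). They were chosen by symbol with earlier results of these data known. A gene was included when the platform annotation gave at least 1 probe set to it alone, and all 10 were, out of 18417 genes measured. The 10 genes had 1 such probe set each. The samples were LNCaP cells, an established line from a metastasis of human prostate carcinoma, harvested 72 hours after siRNA transfection: 1 array each for siSE1 and siSE2, both directed against the SLC45A3-ELK4 chimeric transcript (n = 2), and 1 array for a negative control siRNA (n = 1). Total RNA went to Affymetrix whole-transcript arrays. The comparison asks whether Notch pathway genes differ when the chimera is targeted.

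Notch signalling passes between touching cells. A ligand of the Jagged (JAG) or Delta-like (DLL) family on one cell pulls on a Notch receptor of its neighbour, the receptor is cut by an ADAM protease and then by gamma-secretase, and the freed intracellular part enters the nucleus, where it joins the DNA-binding protein RBPJ and switches on targets such as HES1. HES1 is a repressor of proneural genes, among them ATOH1 in the mouse gut, and by this route Notch holds neighbouring cells to different fates.

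The HES1 promoter shows how this output is wired, and NOTCH1 and DLL4 are shown beside it as 2 of the 3 members furthest above control below. The windows are the 250 bases before the gene start, 5′ to 3′ on the gene's strand, from RefSeq (GRCh38.p14). HES1 lies at chr3:194135898-194136147 on the plus strand, NOTCH1 at chr9:136546049-136546298 on the minus strand and DLL4 at chr15:40929090-40929339 on the plus strand. Capitals mark the RBPJ core TGGGAA on either strand.
HES1: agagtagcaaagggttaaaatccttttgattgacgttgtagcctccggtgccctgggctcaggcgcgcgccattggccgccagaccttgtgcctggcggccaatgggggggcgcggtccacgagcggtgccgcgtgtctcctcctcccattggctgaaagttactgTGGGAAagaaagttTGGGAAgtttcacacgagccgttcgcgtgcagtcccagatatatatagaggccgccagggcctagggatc
NOTCH1: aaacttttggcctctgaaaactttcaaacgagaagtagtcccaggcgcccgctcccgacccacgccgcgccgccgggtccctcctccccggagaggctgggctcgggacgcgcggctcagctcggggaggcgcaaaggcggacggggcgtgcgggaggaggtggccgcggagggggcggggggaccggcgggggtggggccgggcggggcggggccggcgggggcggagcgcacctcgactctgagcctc
DLL4: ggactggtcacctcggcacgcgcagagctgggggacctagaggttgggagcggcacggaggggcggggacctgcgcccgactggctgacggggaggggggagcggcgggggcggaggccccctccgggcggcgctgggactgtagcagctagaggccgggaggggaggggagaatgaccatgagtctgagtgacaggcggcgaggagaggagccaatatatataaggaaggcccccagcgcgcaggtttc
HES1 carried the core at 2 places, from -84 to -79 and from -70 to -65 relative to the gene start, both on the gene's strand. NOTCH1 and DLL4 had none in these letters. Of the 10 members 8 had a promoter in the table, and DLL1 and DLL3 had none there. HES1 alone of the 8 held the core, which 20.8% of 35116 promoters hold at least once and 2.9% at least 2 times. HES1 also held 3 N boxes (CACNAG, either strand, in 32.0% of promoters), the letters through which HES1 is known from the mouse to repress its own gene, and 2 CACGCG sites (either strand, in 9.7% of all promoters and 15.3% of those of tested genes), another sequence that HES proteins bind. CACGCG was also in the windows of JAG2 and DLL4, in DLL4 from -234 to -229, and an N box in that of NOTCH3. None of the matches in HES1 overlap. The core CCGGAA bound by ETS factors such as ELK4 was in 0 of the 8 windows, in 14.5% of all promoters and in 23.9% of the 10244 promoters of tested genes. These are matches of letters and not measured sites.

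For the array titled siSE2, 1 label field (the transfection) gives siSE1, against 3 that give siSE2 (title, source and description). It is called siSE2 here, and if the lone field is right both siRNA arrays carry siSE1. Nothing in the labels tells separate cultures from repeat arrays of 1 culture, so p-values measure only a spread that may be technical. The parent genes read 9.14 with siSE1 and 9.27 with siSE2 for SLC45A3, against 9.66 with control siRNA, and 8.45 and 8.20 for ELK4, against 8.50 with control siRNA (log2). Whole-gene probe sets cannot see the junction of the chimera, and the knockdown therefore has no check in these values. Of 9 luminal prostate markers, 5 had a probe set of their own, and they read 9.40 to 10.7 on the siRNA arrays and 9.51 to 10.2 on the control array, above the level under which genes were left out (log2 5.12). The 6 endothelial markers all averaged below that level, at 3.12 to 4.90 on the siRNA arrays and 2.93 to 4.58 on the control array. Of 7 neuroendocrine markers 5 averaged below it, as did 3 of the 5 blood and 2 of the 4 basal markers measured. Of 7 fibroblast and stromal markers 5 averaged above it, with a median difference of 0.077 (log2). On both siRNA arrays 3 of the 5 were above control (COL1A1, COL1A2 and COL3A1) and 1 below, where 36.4% and 41.7% of all tested genes were. The 1 below was ACTA2, with a difference of -0.47 ± 0.16 (SE; log2; limma, adjusted p = 0.178). The blood marker LYZ read 6.09 with siSE1 and 5.11 with siSE2, against 4.41 with control siRNA (1.19 ± 0.31; limma, adjusted p = 0.0989). Only its siSE1 value was above the level of 5.12, so LYZ entered the test only through that array, where it is high. CD14, the other blood marker tested, was also below that level on the control array. Neither is therefore support for a change in blood markers. The part of these cell types in the members' values was not tested.

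None of the 10 Notch and HES genes passed the test over all 12892 genes tested (limma, adjusted p under 0.05), a test that 124 genes or 0.962% passed (0.248% higher and 0.714% lower). The lowest adjusted p among the members was 0.122 (limma). NOTCH1, DLL1 and DLL4 read above control on both siRNA arrays, with mean differences of 0.51 to 0.55 on the log2 scale that exceeded those of 98.3% to 98.7% of tested genes. DLL3 and HES6 also read above control on both, by 0.33 and 0.13 in the mean, and the mean differences of NOTCH2, NOTCH3, both Jagged genes and HES1 ran from -0.16 to -0.057. At an unadjusted p under 0.05, 4 members were higher (NOTCH1, DLL1, DLL3 and DLL4) and 0 lower, where 6.46% of tested genes were higher and 11.3% lower. No member was at least 1.5-fold from control with both siRNAs, which 2.11% of tested genes were. At 0.32 on the log2 scale with both, a lower bar, 3 members were higher and 0 lower, against 4.27% and 8.02% of tested genes. These are NOTCH1, DLL1 and DLL4. DLL4 is in both counts and in the ranking against tested genes above. It passed the filter on dim genes only through the siRNA arrays, where it is high. Neither the counts nor the rank of DLL4 are therefore support for a shift of the members.

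**Figure D1:**
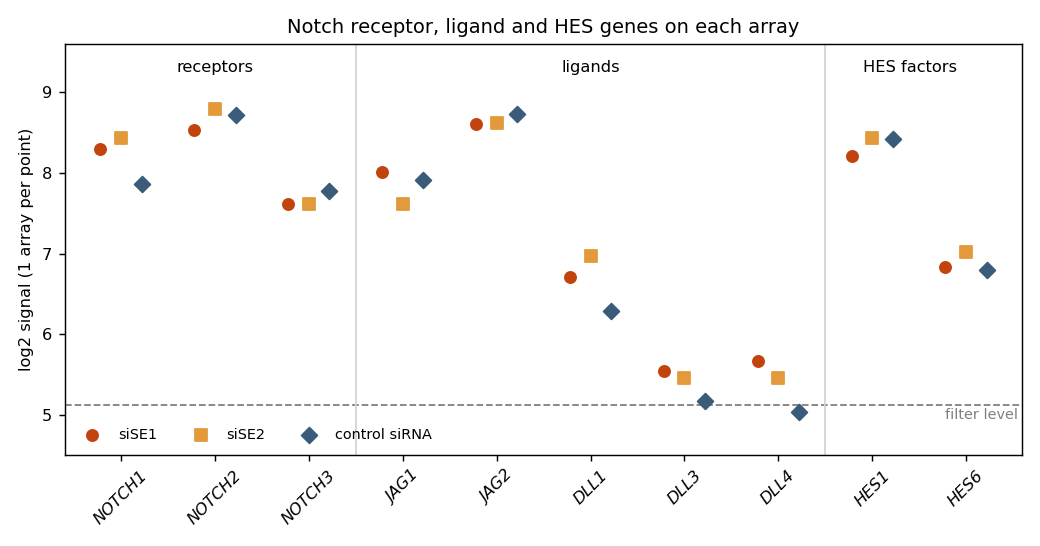
The vertical axis gives the log2 signal of each member on the siSE1, siSE2 and control arrays, 1 point per array, and the dashed line is the filter level of 5.12. NOTCH1, DLL1, DLL3, DLL4 and HES6 have both siRNA points above the control point, and levels are to be compared within a gene only.

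NOTCH1 was the one receptor of the 3 that read above control on both siRNA arrays, without passing the test. NOTCH1 read 8.30 with siSE1 and 8.44 with siSE2, against 7.86 with control siRNA (log2 signal). Both siRNA arrays lay above the control array, and their distance from it was larger than the 0.14 between them. The difference was 0.51 ± 0.15 on the log2 scale (SE, n = 2 against 1; 1.42-fold, unadjusted 95% interval 1.13 to 1.79; limma, adjusted p = 0.122). It exceeded 98.3% of the differences of tested genes. The siRNA differences share the 1 control array, so an error of that array enters both. In RNA from a whole culture, a change in the number of cells that express a gene and a change in its RNA per cell cannot be told apart.

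NOTCH2 read 8.53 with siSE1 and 8.80 with siSE2, against 8.72 with control siRNA, so that the control lay between the siRNA arrays. Its difference was -0.057 ± 0.16 (SE; log2; unadjusted interval -0.42 to 0.30; limma, adjusted p = 0.886). NOTCH2 has near-identical partial copies, the NOTCH2NL genes, so its signal is uncertain. A second probe set, which the annotation gives to NOTCH2, NOTCH2NLA and NOTCH2NLB together, read 9.30 with siSE1 and 9.35 with siSE2, against 9.38 with control siRNA, a difference of -0.059. NOTCH3, a receptor best known from vascular smooth muscle, read 7.62 and 7.61 with the siRNAs, against 7.78 with control siRNA. The NOTCH3 arrays of the siRNAs were almost level with each other, both below control, and the difference of -0.16 ± 0.14 (SE; log2) did not pass (limma, adjusted p = 0.586). Its unadjusted interval, -0.48 to 0.16, includes 0.

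**Figure D2:**
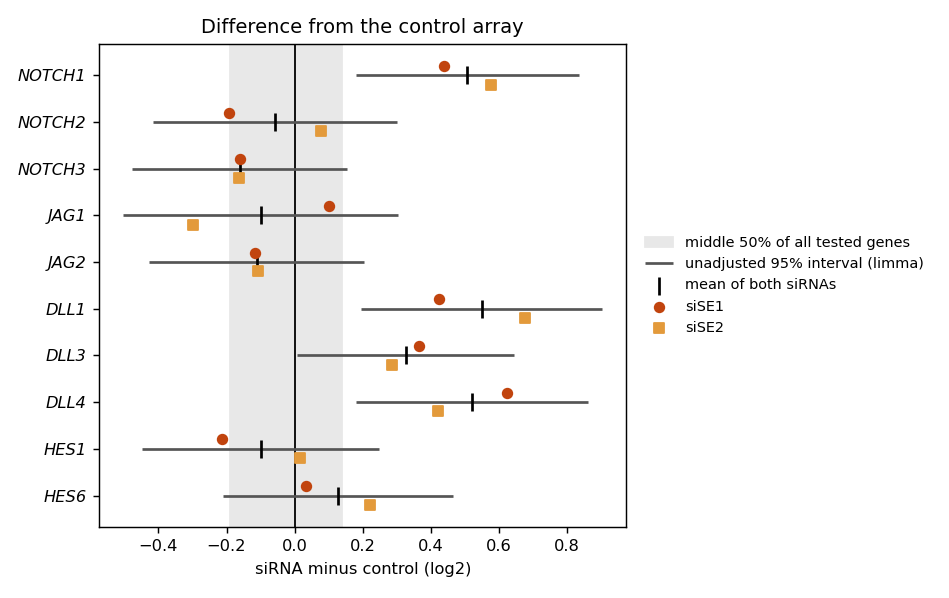
The horizontal axis is the siRNA minus control difference on the log2 scale for each member, with siSE1 and siSE2 as points, their mean as a tick and its unadjusted 95% interval from limma as a line. The intervals of NOTCH1, DLL1, DLL3 and DLL4 lie above 0, and the grey band, from -0.19 to 0.14, holds the middle 50% of tested genes.

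The 3 Delta-like ligand genes read above control on both siRNA arrays, and the Jagged genes did not. DLL1, an activating ligand that presents itself to neighbouring cells, read 6.71 with siSE1 and 6.97 with siSE2, against 6.29 with control siRNA. Both siRNA arrays lay above control, siSE2 by more (1.60-fold) than siSE1 (1.34-fold). Its difference of 0.55 ± 0.16 (SE; log2; 1.46-fold, unadjusted interval 1.15 to 1.87) was the highest among the members and exceeded 98.7% of tested genes, without passing (limma, adjusted p = 0.122).

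DLL4, an activating ligand best known from sprouting blood vessels, read 5.66 with siSE1 and 5.46 with siSE2, against 5.04 with control siRNA. Here siSE1 was further from control (1.54-fold) than siSE2 (1.34-fold). The difference was 0.52 ± 0.15 (SE; log2; 1.44-fold, unadjusted interval 1.13 to 1.82; limma, adjusted p = 0.126). DLL4 read below the filter level of 5.12 on the control array, so it entered the test only through the siRNA arrays. The endothelial markers given above were all under that level on every array. DLL3, a divergent ligand that acts inside the cell and is known from neuroendocrine tumours, read 5.54 and 5.46 with the siRNAs, against 5.17 with control siRNA. The difference of 0.33 ± 0.14 (SE; log2) did not pass (limma, adjusted p = 0.274), and the lower end of its unadjusted interval, 0.0058, was close to 0.

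DLL3 and DLL4 were dim, and dim genes as a whole read higher on the siRNA arrays. Over the 1131 tested genes with a mean under 5.5, the median difference was 0.11 (log2), with 56.3% of them above control on both siRNA arrays. Over the 3208 genes from 6 to 7, the range of DLL1 and HES6, the median was -0.0047, and over the 2107 from 8 to 9, the range of NOTCH1, NOTCH2, JAG2 and HES1, it was -0.065. With cyclic loess normalization DLL3 differed by 0.25 and DLL4 by 0.44, and NOTCH1 by 0.55 (limma, adjusted p = 0.413, 0.179 and 0.101). DLL1 differed by 0.55 there as well. The medians by level were not taken again after that normalization. The part of the shift of dim genes in the members' values was not tested.

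**Figure D3:**
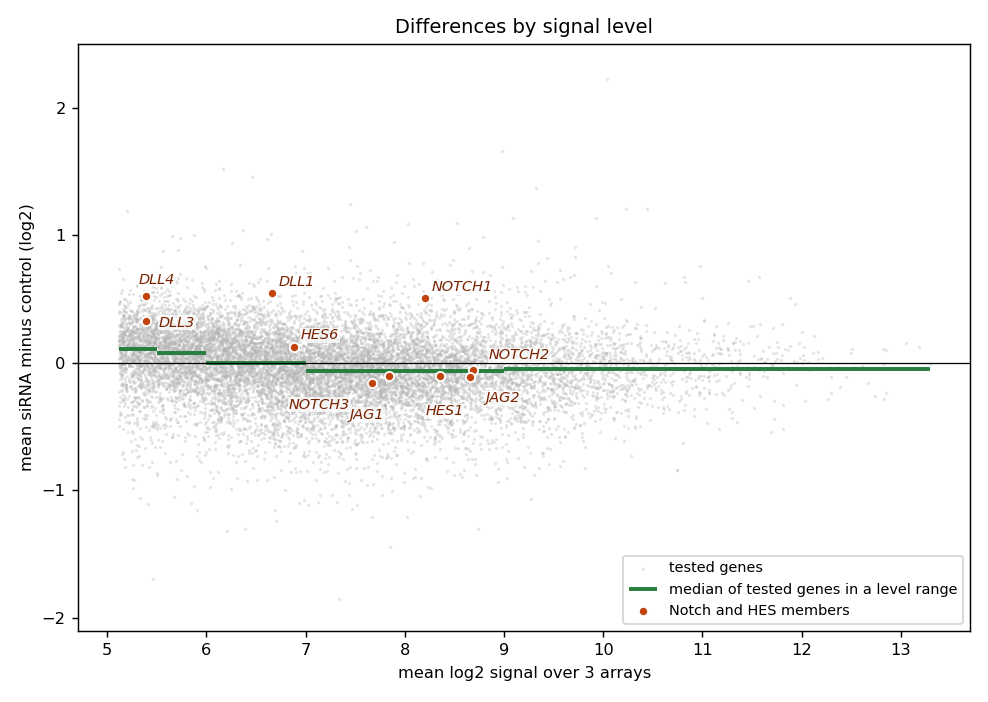
The horizontal axis is the mean log2 signal over the 3 arrays and the vertical axis the mean siRNA minus control difference (log2), with all 12892 tested genes as grey dots, the median in each level range as a green line and the members in colour. The green line lies above 0 for the dimmest genes, where DLL3 and DLL4 sit, and below 0 from 7 upward, where NOTCH1 sits well above it.

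The Jagged genes, whose products also activate Notch receptors, did not stand above control together. JAG1 read 8.01 with siSE1 and 7.61 with siSE2, against 7.91 with control siRNA. The siRNA arrays lay on opposite sides of control, 0.40 apart, the widest such gap among the members and wider than the median gap of 0.12 over tested genes from 7 to 8. Its mean difference was -0.099 ± 0.18 (SE; log2; limma, adjusted p = 0.813). JAG2 read 8.61 and 8.62 with the siRNAs, against 8.73 with control siRNA, a difference of -0.11 ± 0.14 (SE; log2; limma, adjusted p = 0.722). The unadjusted intervals of the differences ran from -0.50 to 0.31 for JAG1 and from -0.43 to 0.20 for JAG2, and both include 0.

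HES1, the repressor whose promoter holds both RBPJ cores printed above, read 8.20 with siSE1 and 8.43 with siSE2, against 8.42 with control siRNA. The siSE2 array was level with control and the siSE1 array below it. The difference of -0.099 ± 0.15 (SE; log2; unadjusted interval -0.45 to 0.25) did not pass (limma, adjusted p = 0.779). HES6, which in the mouse counters HES1 and promotes neuronal differentiation, read 6.83 and 7.02 with the siRNAs, against 6.80 with control siRNA. Both siRNA arrays lay above control, siSE1 by only 0.034, and the difference of 0.13 ± 0.15 (SE; log2) did not pass (limma, adjusted p = 0.698).

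By role, the median differences (log2) were -0.057 for the 3 receptors, 0.33 for the 5 ligands and 0.015 for the HES factors, against -0.019 for all genes tested. The ligand median is the difference of DLL3, from the range under 5.5 where the median of tested genes was 0.11. The median over the 10 members was 0.035, with 0.067 for siSE1 and 0.15 for siSE2. The siRNA arrays were both above control for 5 members and both below for 2 (NOTCH3 and JAG2), where 36.4% of tested genes were both above and 41.7% both below. For the remaining 3 (NOTCH2, JAG1 and HES1) the siRNAs pointed in opposite directions. DLL4, which entered the test only through the siRNA arrays, is in the count above control, in the ligand median and in the member median. None of these is therefore support for a shift of the members. The siRNAs differ in 1 array each, so their differences have no test.

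The rest of the pathway was followed through 7 lists, of which 83 genes were tested; 3 of them rose, 1 fell and 79 did not pass, where 0.248% of all tested genes rose and 0.714% fell. The lists, like the members, were chosen with earlier results known. NEUROG3, among the 3 that rose, read below the filter level on the control array and entered the test only through the siRNA arrays. The count is therefore not support for a shift of the pathway. NRARP, a Notch target that feeds back on the receptor complex, read 7.40 with siSE1 and 7.38 with siSE2, against 7.03 with control siRNA, both above it, and the difference of 0.36 ± 0.14 (SE; log2; 1.29-fold) did not pass (limma, adjusted p = 0.222). Of the 17 tested HES, HEY and target genes 0 passed, with a median of 0.14. On both siRNA arrays 9 were above control and 3 below, where 36.4% and 41.7% of all tested genes were. GATA3, among the 9 (named after its values were seen), read below the filter level on the control array. It entered the test only through the siRNA arrays. Several others of the 9 were dim, in the range where tested genes as a whole were higher. Neither the count nor the median is therefore support for a shift of this list. The 3 below control were ID1, ID2 and ID3 (ID3 named after its values were seen), which encode inhibitors of basic helix-loop-helix (bHLH) factors. ID1 read 8.58 and 8.77 with the siRNAs, against 9.28 with control siRNA (-0.61 ± 0.15; limma, adjusted p = 0.0905). ID2 differed by -0.35 ± 0.15.

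Proneural factors and their partners, among them genes that HES proteins are known to repress, gave 3 of the 4 calls. ATOH1 read 10.9 with siSE1 and 10.7 with siSE2, against 8.56 with control siRNA, and rose 4.66-fold (limma, adjusted p = 0.00124), while HES1 did not pass. NEUROG3, which specifies endocrine cells of gut and pancreas, read 6.15 and 5.98 with the siRNAs, against 5.08 with control siRNA, and rose 1.97-fold (limma, adjusted p = 0.0263). Its control value was under the filter level of 5.12, so, like DLL4, it entered the test only through the siRNA arrays. TCF4, a bHLH partner of proneural factors, read 6.62 with each siRNA, against 7.44 with control siRNA, and fell 1.77-fold (limma, adjusted p = 0.0378). Of the 9 tested genes of this list the other 6 did not pass, and the median was 0.057. NEUROG3 is in both the count of calls and the median, and the list was chosen with earlier results known. Neither is therefore support for a shift of this list. Without a filter on dim genes ATOH1 alone of the 3 passed, with adjusted p = 0.0991 for NEUROG3 and 0.124 for TCF4 (limma).

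Among genes of ligand and receptor handling, NEURL1 alone rose. It encodes a ubiquitin ligase whose fly counterpart, Neuralized, drives the uptake of Delta that activates Notch on the neighbouring cell. NEURL1 read 6.82 with siSE1 and 6.90 with siSE2, against 6.12 with control siRNA, and the difference was 0.74 ± 0.14 (SE; log2; 1.67-fold; limma, adjusted p = 0.0491). That call was lost with equal array medians (adjusted p = 0.0687), with no filter (0.140) and on raising the filter to the 50th percentile (0.0574; all limma). In the same list of 17 tested endocytosis and turnover genes, WWP2, another ubiquitin ligase, differed by 0.46 ± 0.14 and MIB1, the ligase that handles Delta and Jagged in mammals, by -0.32 ± 0.14, without passing (limma, adjusted p = 0.143 and 0.278). On both siRNA arrays 7 genes of the list were above control and 7 below, where 36.4% and 41.7% of all tested genes were. The median of the list was 0.041.

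**Figure D4:**
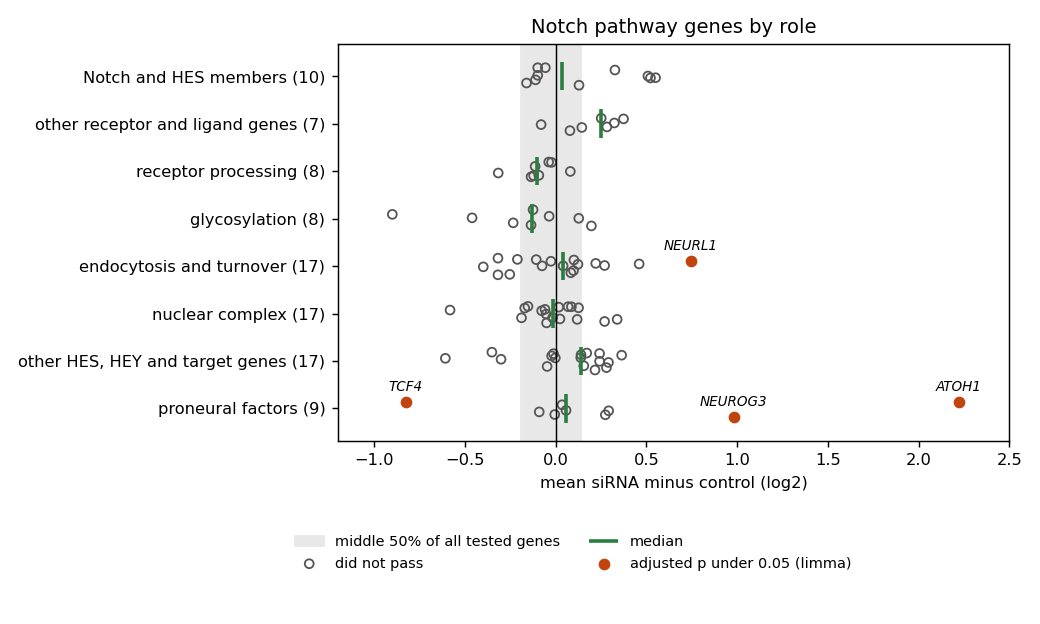
The horizontal axis is the mean siRNA minus control difference (log2) and each row a list, with the number of tested genes in parentheses, 1 circle per gene, filled where limma's adjusted p was under 0.05, and the median as a green line. The 4 filled circles are ATOH1, NEUROG3, TCF4 and NEURL1, and the grey band from -0.19 to 0.14 holds the middle 50% of all tested genes.

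Of 8 tested glycosyltransferases that sugar the Notch extracellular repeats 0 passed. On both siRNA arrays 6 were below control and 2 above, where 41.7% and 36.4% of all tested genes were, and their median of -0.13 lay within the middle 50% of tested genes. GXYLT2, a xylosyltransferase that extends the O-glucose on Notch, read 5.81 with siSE1 and 6.21 with siSE2, against 6.91 with control siRNA, both well below it. Its difference of -0.90 ± 0.18 (SE; log2) missed the threshold (limma, adjusted p = 0.0539) and passed it under 4 of 9 alternatives. POGLUT1, which adds that O-glucose, differed by -0.46 ± 0.15 and EOGT, which adds O-linked N-acetylglucosamine, by -0.23 ± 0.14 (limma, adjusted p = 0.171 and 0.423). The fringe genes LFNG and RFNG, which tune the choice between Delta and Jagged and were singled out after their values were seen, differed by 0.13 and -0.14.

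The proteases that release the receptor showed no call in 8 genes tested, with a median of -0.10. On both siRNA arrays 4 were below control and 0 above, where 41.7% and 36.4% of all tested genes were. For the other 4 the siRNAs pointed in opposite directions. The gamma-secretase subunit genes PSENEN, APH1A and NCSTN differed by -0.32 ± 0.14, -0.14 ± 0.14 and -0.12 ± 0.14 (SE; log2; limma, adjusted p = 0.283, 0.658 and 0.698). The nuclear complex showed no call in 17 genes either, with a median of -0.017. KAT2B, a histone acetyltransferase, read 6.96 with siSE1 and 6.17 with siSE2, against 7.15 with control siRNA, so that its difference of -0.58 ± 0.26 came mainly from siSE2 (limma, adjusted p = 0.289). SNW1, a bridging cofactor, differed by -0.17 ± 0.14 and TLE1, a Groucho corepressor, by 0.34 ± 0.19. RBPJ itself, singled out after its values were seen, read 7.14 and 7.20 with the siRNAs, against 7.15 with control siRNA, but its probe sets disagreed, one at -0.18 and the other at 0.21.

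Of 7 other receptor and ligand genes tested 0 passed. On both siRNA arrays 5 of them were above control and 0 below, where 36.4% and 41.7% of all tested genes were, and for the remaining 2 (MFAP2 and EGFL7, named after their values were seen) the siRNAs pointed in opposite directions. Their median was 0.25. DLK2 read below the filter level on the control array, so, like DLL4, it entered the test only through the siRNA arrays. Among list genes left out by the filter, MFAP5 was below control on both siRNA arrays and DNER above (both picked with their values in view). Neither the count nor the median is therefore support for a shift of this list. CCN3, a secreted protein that binds NOTCH1, differed by 0.37 ± 0.15, and the Delta-like homologues DLK2 and DLK1, which lack the domain that activates Notch, by 0.32 ± 0.14 and 0.28 ± 0.14 (SE; log2; limma, adjusted p = 0.224, 0.282 and 0.330). These 3 genes read between 5.31 and 6.06 on the siRNA arrays and between 5.04 and 5.62 on the control array, in the range where tested genes as a whole were higher (medians of 0.11 under 5.5 and 0.077 from 5.5 to 6). The part of that shift in these values was not tested.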

How the data were processed

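LNCaP cells were profiled on 3 arrays: siSE1, siSE2 and control siRNA. The authors deposited log2 values for 33297 probe sets, which the submitters' processing notes credit to Affymetrix Expression Console; its algorithm, background correction and genome build are not stated there. The log2 scale was inferred from the range, 1.43 to 13.9, and array medians of 5.84, 5.84 and 5.80. Probe sets that the platform annotation gives to 1 gene (19460) were averaged per gene (18417 genes). Symbols were updated by gene identifier for 19429 probe sets. Genes whose mean lay under the 30th percentile (log2 5.12) were dropped, 5525 in all.

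The contrast of siRNA with control arrays was fitted in limma 3.58.1 (lmFit, eBayes; R 4.3.3), with Benjamini-Hochberg adjustment over 12892 genes and a threshold of 0.05. The fit has 1 residual degree of freedom, from the gap between the siRNA arrays, and takes the control array to be equally variable. SE is the moderated standard error. The fit was tested on simulated data. The number of arrays limits the precision. Motifs were searched in RefSeq promoter windows, whose strand was checked on 3111 overlapping pairs.

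The members and lists were chosen with earlier results of these data known. The genes named are the members, every list gene that passed, and up to 3 per list ranked by the weaker of their siSE1 and siSE2 differences where both had 1 sign. Alternatives covered normalization, filter, probe set choice, variance prior, thresholds and leaving out an siRNA array. Of 103 listed pathway genes 9 had no probe set of their own and are not analysed here.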

Additional observations from a re-analysis of the deposited data

How the results depend on the processing

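No member passed at 0.05 under any of the 9 alternatives that change the values, the filter or the variance prior. In the main fit none passed at an adjusted p under 0.1 either. Under the 9 alternatives each member tested kept the direction of its mean difference. DLL3 and DLL4 were not tested with the filter at the 50th percentile. The lowest adjusted p of a member was 0.0877, for NOTCH1 with quantile normalization (limma), which is under 0.1. The genes that passed over the whole table numbered 124, against 189 with quantile normalization, 1 with no filter, 35 with the filter at the 50th percentile, 507 at an adjusted p under 0.1 and 2 under 0.01. Genes past 1.5-fold with both siRNAs numbered 272, against 1584 at 0.32 on the log2 scale and 24 at 2-fold, and 519 to 738 with an siRNA array left out. Members past the fold numbered 0, against 3 at 0.32 and 1 with either siRNA array left out (DLL1 without siSE1, DLL4 without siSE2). The median over the members was 0.035, against -0.0043 with equal array medians, where all 10 members were tested. The median over all tested genes was -0.019, against -0.059 with equal array medians. With the filter at the 50th percentile, which removes DLL3 and DLL4, the member median was -0.078, beside -0.053 for all tested genes. With an siRNA array left out the member median was 0.067 to 0.15, beside -0.023 to -0.013 for all tested genes. Without siSE1 the differences of NOTCH2 and HES1 turned positive (0.077 and 0.015), and without siSE2 that of JAG1 did (0.10). Calls in the endocytosis list numbered 0 in place of 1 with equal array medians, no filter and the filter at the 50th percentile. Calls in the glycosylation list numbered 1 in place of 0 with quantile normalization, cyclic loess, the highest probe set per gene and an intensity trend in eBayes. Calls in the proneural list numbered 1 in place of 3 with no filter and the filter at the 50th percentile. Leaving out an siRNA array leaves no residual degree of freedom, so it gives values with no test. No paired analysis was possible because the control group has 1 array and the labels number no pairs.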

Other observations

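Pathway genes below the filter level were not tested, and those given next, out of 11, were picked with their values in view. MAML2, a coactivator that binds the Notch and RBPJ complex, read 4.71 with siSE1 and 4.51 with siSE2, against 5.47 with control siRNA, so that it crossed the filter level of 5.12 on the control array alone. The difference of -0.87 (log2) was the largest among these untested genes. TLE4, a Groucho corepressor, read 4.85 and 4.83 with the siRNAs, against 4.43 with control siRNA, a difference of 0.41. MFAP5, a microfibril protein that binds Jagged and Notch proteins, read 3.60 and 3.66 with the siRNAs, against 3.97 with control siRNA, a difference of -0.34. HEY1 and HEY2, repressors related to HES1 and induced by Notch in blood vessels, differed by 0.059 and 0.31, with HEY1 at 4.92 on both siRNA arrays, against 4.86 with control siRNA.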
